A study of Mus musculus with 2 samples.

Results

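The SR and hnRNP splicing regulators were taken as every gene whose symbol begins with Srsf, Srrm, Hnrnp, Tra2, Ptbp, Celf, Mbnl or Rbfox followed by the rest of its name. This rule on symbols used no measured value. It was applied to the deposited table, which covers chromosomes 1 to 19 only, so any member on a sex chromosome is absent from all counts below. The rule found 52 of the 29833 genes of the table, held in 76 of its 37178 records, since the table gives 1 record per gene and transcript biotype. Of these records, 50 were protein-coding and 26 were of the lncRNA biotype, and 24 genes had 1 of each. All but 2 of the lncRNA records were transcripts of the regulator genes themselves that carry no annotated reading frame, and the exceptions were the antisense genes Srrm3os and Srrm4os.

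The RNA came from F123, a single male line of mouse embryonic stem cells (mESCs) that has a paternal CAST and a maternal S129/Jae genome, so that reads over sequence variants could be given to 1 parental allele. No treatment or second genotype was compared, and the comparison within the cells was that of the CAST with the S129 allele. The cells had been grown on feeder fibroblasts, then passaged 2 or more times on gelatin without feeders, and were collected after about 48 h. Total RNA of 2 replicates was sequenced, and the table pools both, so each record has a single TPM (transcript abundance on a scale set by transcript length and sequencing depth) and a single pair of allelic read counts, and every interval and p-value below covers counting error only. All 10 mESC markers examined were at 12.1 TPM or more, with a median of 149 TPM. Of 10 fibroblast markers, 5 reached 1 TPM, and their levels summed to 18.2 TPM against 1595 TPM for the mESC markers.

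SR proteins bind exonic enhancers through RNA recognition motifs and recruit the splicing machinery through their arginine-serine-rich domains. The hnRNPs coat nascent transcripts, and many of them silence exons or act against SR proteins at nearby sites. PTB, CELF, MBNL and RBFOX proteins set tissue-specific exon choice, above all in neurons and muscle. Many genes of both classes control their own amount by including a so-called poison exon, which brings a stop codon into the reading frame and sends the transcript to nonsense-mediated decay.

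Of the 52 genes, 42 were expressed, meaning that at least 1 of their records reached 1 TPM, and 61 records did so. The SR group had 10 of 11 genes expressed, the TRA2 proteins 2 of 2, the hnRNPs 19 of 19 and the PTB proteins 3 of 3. The CELF and RBFOX groups were sparser, with 2 of 6 and 1 of 3 genes expressed, while 2 of 2 MBNL genes were expressed. Of the 6 SR-related genes, which include both antisense genes, 3 were expressed. The median TPM over the expressed genes, each taken at its highest record, was 86.1 for the SR group, 57.6 for the hnRNPs, 38.2 for the TRA2 proteins and 5.59 for the MBNL proteins.

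**Figure D1:**
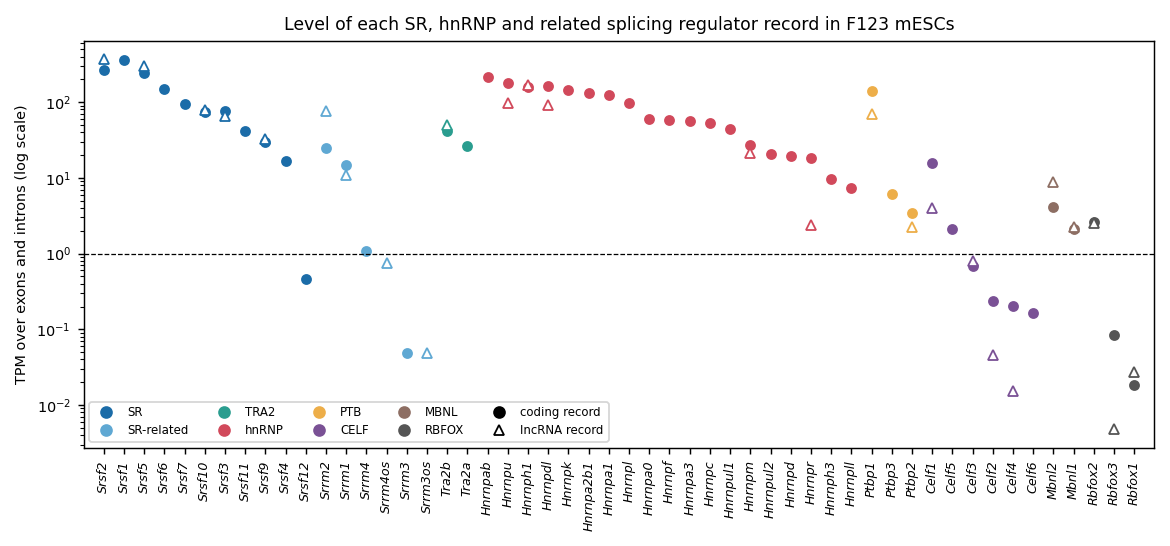
TPM over exons and introns of all 76 records (log axis), by gene and grouped by protein family, with filled circles for protein-coding and open triangles for lncRNA records; both replicates are pooled in each value. The dashed line marks 1 TPM, and the 19 hnRNP genes all lie above it, while 10 genes of the other families lie below it.

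The highest levels belonged to SR genes. Srsf2, which codes for a nuclear SR protein that binds exonic enhancers, reached 369 TPM in its lncRNA record and 264 TPM in its coding record. Srsf1, the gene of the first SR protein described, reached 362 TPM, and Srsf5 reached 298 TPM in its lncRNA and 242 TPM in its coding record. These 3 genes ranked 122, 125 and 161 among all records of the table by their highest record. The lncRNA records of Srsf2 and Srsf5 overlap the coding records, and these TPM values are over exons and introns. Reads of the coding transcripts may therefore count in the lncRNA records, whose levels do not measure the lncRNA transcripts alone. The next were Hnrnpab at 215 TPM, Hnrnpu at 177 TPM, Hnrnph1 at 166 TPM and Hnrnpdl at 163 TPM. Hnrnpu codes for a scaffold protein that binds RNA and chromatin. They were followed by Srsf6 at 148 TPM, Hnrnpk at 146 TPM and Ptbp1 at 142 TPM. Ptbp1 is the PTB gene of most dividing cells, and its neuronal counterpart Ptbp2 was at 3.40 TPM. With the replicates pooled, no spread can be set beside these levels, so the order of neighbours such as Srsf6, Hnrnpk and Ptbp1 could not be tested.

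The 10 genes under 1 TPM were mostly those known from neurons and muscle. Srsf12 was at 0.467 TPM, Celf3 at 0.787 TPM, Celf2 at 0.240 TPM, Celf4 at 0.203 TPM and Celf6 at 0.166 TPM. Rbfox3, which codes for the neuronal antigen NeuN, was at 0.0847 TPM, and Rbfox1 was at 0.0276 TPM. Srrm3 and Srrm3os were at 0.0493 TPM each and Srrm4os was at 0.741 TPM. Srrm4, the regulator of neuronal microexons, lay just above the minimum at 1.10 TPM. Of 6 neuronal and muscle markers, Rbfox3 among them, 1 reached 1 TPM, which was the tubulin gene Tubb3 at 8.10 TPM.

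The table holds a second TPM, over exons only, and the main one is over exons and introns. The main value was at least 2 times the exon value in 10 of the 61 expressed member records, or 16.4%, against 17.2% of all expressed records. Srsf1 stood out by its level, with 362 TPM over exons and introns and 49.1 TPM over exons. Among the 551 records of at least 100 TPM in the whole table, 1.63% had such a ratio. Among the other member records, the Hnrnpu lncRNA record had 98.5 and 9.72 TPM, and the Mbnl1 lncRNA record had 2.22 and 0.0123 TPM. Exons make up 78.1% of the length of the Srsf1 record and 86.2% of the Hnrnpu lncRNA record, but 0.807% of the Mbnl1 lncRNA record. How the exon value treats reads shared between transcripts is not given in the sources used here. The ratio is therefore not a measure of intronic RNA, and its cause was not tested.

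**Figure D2:**
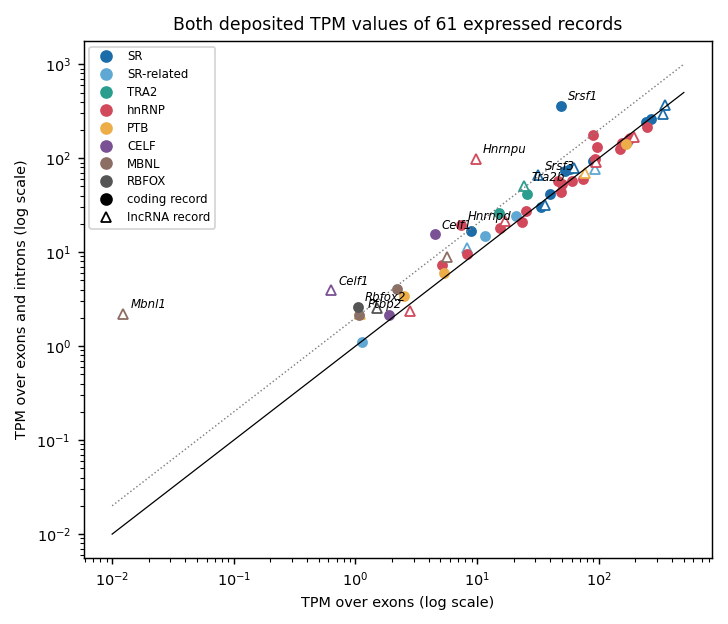
TPM over exons and introns against TPM over exons (both log axes) for the 61 expressed member records, colored by family. The solid line marks equal values and the dotted line a ratio of 2, and the genes of the 10 records on or above it are named, with Srsf1 the highest of them.

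Allelic reads were found in 63 of the 76 records, and 58 records of 40 genes could be tested, having allelic reads and at least 1 TPM. A record was called allele-specific (ASE) where the absolute log2 fold change of CAST over S129 reads was at least 1, the adjusted p of the exact binomial test was at most 0.05 and the TPM was at least 1. By this rule 3 of the 58 records were ASE, 2 toward CAST and 1 toward S129, and 55 were biallelic. Over all 15935 tested records, 14.1% were ASE, 8.33% toward CAST and 5.78% toward S129. The 3 records were the coding records of Srsf2, Hnrnpc and Hnrnpa1. No record of the SR-related, TRA2, PTB, CELF, MBNL or RBFOX genes was called.

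**Figure D3:**
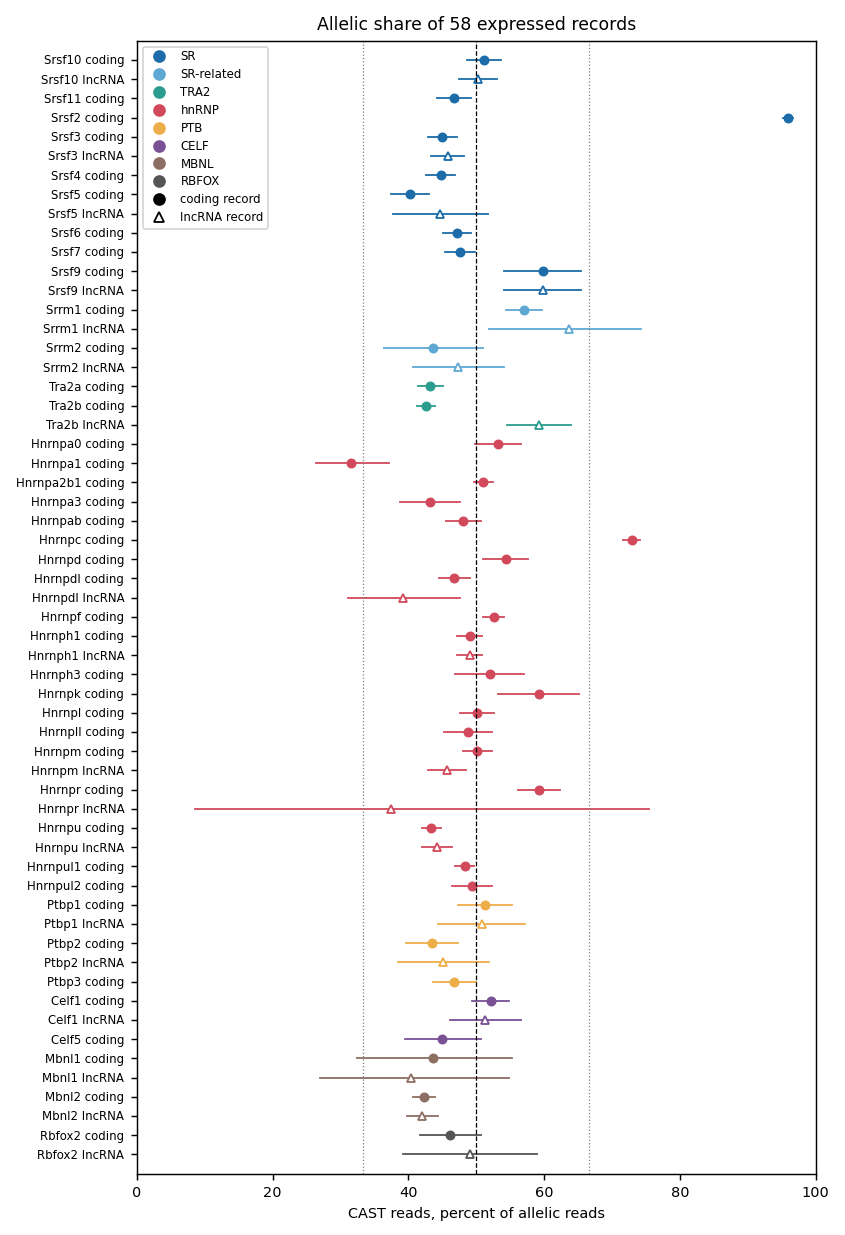
CAST reads as a percent of allelic reads (x axis, 0 to 100) for the 58 tested records, by gene and family, with exact 95% binomial intervals as bars; circles are coding and triangles lncRNA records. The dashed line marks equal shares and the dotted lines a 2-fold difference, and Srsf2 at 96.0%, Hnrnpc at 72.9% and Hnrnpa1 at 31.6% lie past them.

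Srsf2 had by far the most uneven allelic reads. Its coding record (ENSMUSG00000034120, chr11:116850054-116853072 in GRCm38, minus strand) held 2855 CAST and 119 S129 reads over 7 variants. The CAST share was 96.0% (exact 95% interval 95.2 to 96.7), a log2 fold change of 4.58 ± 0.13 (counting SE) or 24.0-fold. All 7 variants lay in exons, and all carried the non-reference base on CAST. The lncRNA record of Srsf2, at chr11:116850108-116851571, lies inside the coding record and holds no counted variant. The 7 counted variants therefore fell in the 1501 bases at the 5′ side of it or in the 54 bases at the 3′ end. The allelic balance of the lncRNA record was not measurable. By the annotation Srsf2 is overlapped on the opposite strand by Mettl23 over its whole length and by Mfsd11 over 633 bases. The deposited records of these genes do not reach into it, and their levels were 9.38 TPM for Mettl23 and at most 5.74 TPM for Mfsd11, against 264 TPM for Srsf2. Mettl23 had 115 CAST and 135 S129 reads, and the coding record of Mfsd11 had 58 and 37. Within 500 kb, 23 records of 16 other genes could be tested, and 1 of them was ASE toward CAST and 1 toward S129, with a median log2 fold change of 0.07.

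Hnrnpc codes for a core hnRNP that binds uridine tracts of nascent RNA and keeps cryptic exons out of transcripts. Its record (ENSMUSG00000060373, chr14:52073377-52104028, minus strand) held 3671 CAST and 1364 S129 reads over 114 variants, 107 of them intronic. The CAST share was 72.9% (71.7 to 74.1), and the log2 fold change was 1.43 ± 0.05 (adjusted p = 4.24e-238, exact binomial test). In contrast to most members, 89 of its 114 variants had the non-reference base on S129, so that CAST reads matched the reference there. The part of this in the result was not tested at Hnrnpc itself. Of the 19 tested records of 13 genes within 500 kb, 0 were ASE and the median log2 fold change was 0.10. In the neighbouring records with at least 10 variants, 50.2% of the variants had the non-reference base on S129. Of the 8 member records with most variants of this kind, those other than Hnrnpc belonged to Mbnl1, Srsf10, Srrm2 and Hnrnpr. The median log2 fold change of these 8 records of 5 genes, Hnrnpc included, was -0.07, against -0.12 in the other 50 tested member records. Over all 1155 such records of the table the median was 0.08, and 10.3% were ASE toward CAST. In the other 14780 tested records the median was 0.003, and 8.18% were ASE toward CAST.

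Hnrnpa1 codes for an hnRNP that silences exons and binds UAG-containing sites. Its record (ENSMUSG00000046434, chr15:103240432-103244955, plus strand) held 96 CAST and 208 S129 reads over 9 variants, 7 of them intronic. The CAST share was 31.6% (26.4 to 37.1), and the log2 fold change was -1.12 ± 0.18 (adjusted p = 7.91e-10, exact binomial test). With an assumed correlation of 0.05 between reads, neither Hnrnpa1 (adjusted p = 0.844, beta-binomial test) nor Hnrnpc (adjusted p = 0.425) passed, while Srsf2 did. The interval of Hnrnpa1 reached across the share of a 2-fold difference, so the record lay at the boundary of the rule. The gene has processed pseudogenes elsewhere in the genome, so its level of 125 TPM is uncertain where the copies share sequence. The allelic reads were restricted by the authors to variants in regions of high mappability, and reads of pseudogenes were not measured here. Of 10 records of 9 neighbouring genes within 500 kb, 4 were ASE toward S129 and 0 toward CAST, with a median log2 fold change of -0.34.

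The promoters of the 3 ASE genes are shown because the start of each called record lies within them. They run from 250 bases before to 50 after the annotated start in RefSeq GRCm38.p6, which is not the exact start of the called record. They show the reference genome, not the CAST or S129 allele. They lie at chr11:116853045-116853344 (minus strand) for Srsf2, chr14:52103972-52104271 (minus strand) for Hnrnpc and chr15:103240147-103240446 (plus strand) for Hnrnpa1. Capitals mark matches on either strand to the CCAAT box (letters CCAAT), to the GC box (letters GGGCGG) and to the TATA box (letters TATAA), and matches may touch or overlap.
Srsf2 promoter: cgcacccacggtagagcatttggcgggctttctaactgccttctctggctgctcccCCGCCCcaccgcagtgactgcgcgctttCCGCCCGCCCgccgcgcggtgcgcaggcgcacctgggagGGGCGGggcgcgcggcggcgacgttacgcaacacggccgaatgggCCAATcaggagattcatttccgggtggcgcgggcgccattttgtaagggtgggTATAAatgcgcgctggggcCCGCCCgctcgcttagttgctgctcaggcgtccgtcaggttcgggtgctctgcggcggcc
Hnrnpc promoter: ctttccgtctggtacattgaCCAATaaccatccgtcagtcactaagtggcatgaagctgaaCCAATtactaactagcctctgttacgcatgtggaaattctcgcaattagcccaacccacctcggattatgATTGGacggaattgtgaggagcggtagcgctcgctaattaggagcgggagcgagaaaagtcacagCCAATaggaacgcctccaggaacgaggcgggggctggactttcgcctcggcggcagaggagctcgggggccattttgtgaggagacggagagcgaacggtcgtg
Hnrnpa1 promoter: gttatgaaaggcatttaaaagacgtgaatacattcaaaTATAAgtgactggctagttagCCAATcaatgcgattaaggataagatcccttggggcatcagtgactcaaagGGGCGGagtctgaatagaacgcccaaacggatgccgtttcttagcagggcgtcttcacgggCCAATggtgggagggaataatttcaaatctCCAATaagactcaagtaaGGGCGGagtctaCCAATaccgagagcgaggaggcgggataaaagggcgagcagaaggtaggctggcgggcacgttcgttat
The Srsf2 promoter held 5 GGGCGG matches, 1 CCAAT and 1 TATAA. The Hnrnpc promoter held 4 CCAAT matches and none of the others, and that of Hnrnpa1 held 4 CCAAT, 2 GGGCGG and 1 TATAA. Of all 32851 promoters of the same length, 37.4% had at least 1 CCAAT, 35.7% at least 1 GGGCGG and 24.9% at least 1 TATAA. The table does not give the variants of each allele by position, so no match could be tied to 1 allele.

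At an adjusted p of at most 0.05 with no minimum fold, 30 of the 58 member records passed, the 3 ASE records included, and 48.3% of all tested records did, so the share in the members was near the background. These calls treat reads as independent. With an assumed correlation of 0.01 between reads, an alternative added after the values were seen, 3 of the 58 passed, which were Srsf2, Hnrnpc and Hnrnpa1, against 14.3% of all. Of the 30, 19 leaned to S129 (22.9% of all tested records) and 11 to CAST (25.4% of all). The S129 side held 15 genes, among them the SR genes Srsf3, Srsf4, Srsf5, Srsf6 and Srsf11, the coding records of Tra2a and Tra2b, the hnRNP genes Hnrnpa3, Hnrnpu and Hnrnpul1, and both records of Mbnl2. The CAST side held 9 genes, among them Hnrnpd, Hnrnpf, Hnrnpk, Hnrnpr, Srrm1 and Srsf9. Some of these records share reads, as both records of Srsf9 do, and Tra2b had a record on each side. The absolute log2 fold changes ran from 0.10 to 1.12 on the S129 side and from 0.15 to 4.58 on the CAST side. The median log2 fold change of the members was -0.12, against 0.01 over all tested records, and the median of its absolute value was 0.27 against 0.36.

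Most members thus sat near equal shares. A CAST share between 40 and 60% was found in 52 of the 58 records, or 89.7%, against 67.4% of all tested records. The members were also measured more deeply, with a median of 1190 allelic reads over 20 variants per record, against 397 reads over 13 variants for all. The median number of counted variants per kb was 1.55 against 1.00. The authors required a minimum read coverage of each variant, so these variant numbers depend on depth and do not measure how far the alleles differ in sequence. Low read numbers widen the spread of shares, so this comparison of spread is affected by depth, and the part of depth in it was not tested. Summed over the 58 records, some of which share reads, 50.7% of the allelic reads were CAST.

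**Figure D4:**
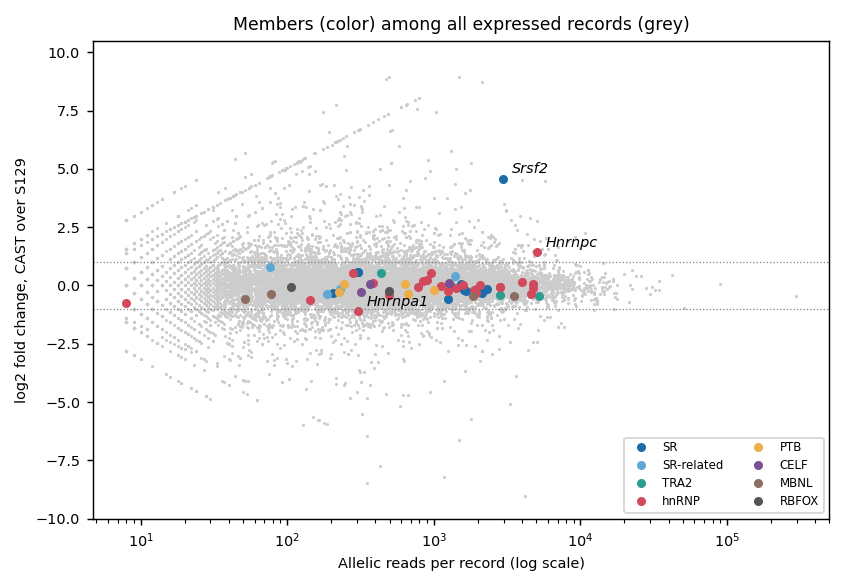
Log2 fold change of CAST over S129 reads against allelic reads per record (log axis) for the 15935 tested records in grey, with the 58 member records in color by family. The dotted lines mark a 2-fold difference, and 55 members lie between them while Srsf2, Hnrnpc and Hnrnpa1 are named.

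Of the biallelic members with at least 100 allelic reads, 5 had the widest imbalance. The widest was the lncRNA record of Hnrnpdl, an hnRNP D-like protein gene, with 56 CAST and 87 S129 reads and a log2 fold change of -0.64 ± 0.25 (adjusted p = 0.0272, exact binomial test). Srsf5 had 503 CAST and 747 S129 reads in its coding record, a CAST share of 40.2% (37.5 to 43.0) and a log2 fold change of -0.57 ± 0.08 (adjusted p = 3.92e-11, exact binomial test). Srsf9 had 182 and 122 reads, a share of 59.9% (54.1 to 65.4), and its coding and lncRNA records held the same reads. Hnrnpk, which codes for a protein that binds cytosine-rich RNA and DNA, had 166 and 114 reads and a share of 59.3% (53.3 to 65.1). For Srsf9 and Hnrnpk the log2 fold changes were 0.58 ± 0.17 and 0.54 ± 0.18, both toward CAST. The lncRNA record of Tra2b, with a log2 fold change of 0.54 ± 0.14, was the remaining one.

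Several members lie near each other on a chromosome, and their shares could be set side by side. Hnrnpd and Hnrnpdl, whose records are 54.7 kb apart on chromosome 5, had CAST shares of 54.3% and 46.8%, on opposite sides of equality. On chromosome 4, Srsf10 at 51.2% lies between Srrm1 at 57.1% and Hnrnpr at 59.3%, 502 kb from the first and 441 kb from the second. Srsf10 was the nearest to equal shares of these 3 genes. Hnrnpll and Srsf7 on chromosome 17 had 48.8% and 47.6%, and Hnrnpa0 and Hnrnpk on chromosome 13 had 53.2% and 59.3%. The differences between these genes were not tested.

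Where a gene had both a coding and an lncRNA record with allelic reads, the 2 were compared. This was so for 19 member genes. Allelic reads were counted over the exons and introns of a record. Where the 2 records overlap, the lncRNA record may therefore also hold reads of the coding transcript. The comparison is thus one of stretches of a locus, not of separate transcripts. In Hnrnph1, Celf3 and Srsf9 the 2 records held the same reads, and 16 genes could be tested by Fisher's exact test. Where the lncRNA record lay inside the coding record, its reads were set against the rest of the coding record. Of these 16 genes, 1 differed at an adjusted p of at most 0.05, against 25.7% of the 4109 genes tested in the whole table. In 5 of the 16, Hnrnpm, Srsf5, Ptbp2, Celf1 and Mbnl1, the records overlap without one lying wholly inside the other, so whole records were compared and shared reads stood on both sides, which makes the difference smaller. With those reads taken out, 2 of the 16 differed, against 28.6% of all genes. The median absolute difference in CAST share was 3.71 percentage points in the members and 6.75 in all.

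**Figure D5:**
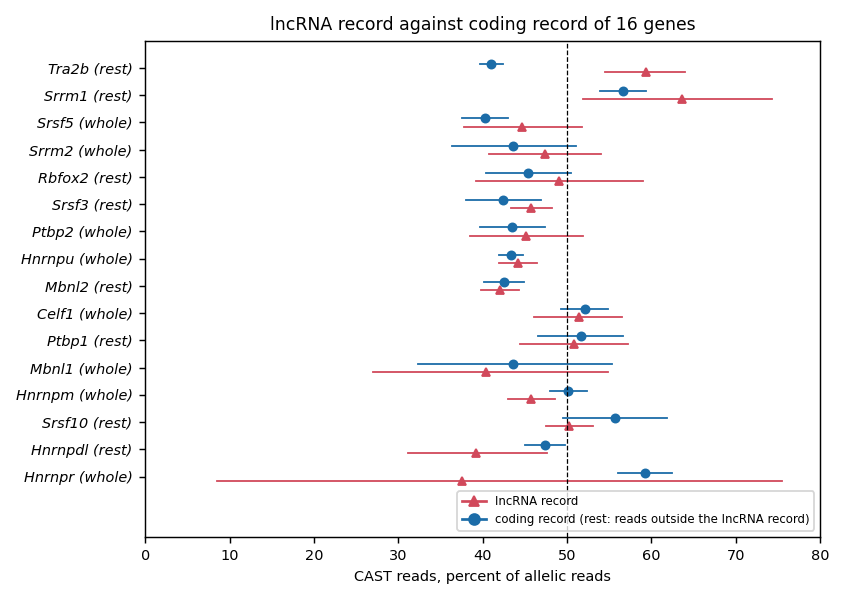
CAST percent of allelic reads in the lncRNA record (triangles) and in the coding record (circles) of 16 genes, with exact 95% intervals; "rest" marks genes where the coding value leaves out reads of the lncRNA record inside it, and "whole" those where entire records are compared. Tra2b, at the top, has separate intervals at 59.3% and 41.0%.

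The gene that differed was Tra2b, which codes for an SR-like activator that binds GA-rich exonic enhancers. Its lncRNA record (ENSMUSG00000022858, chr16:22254517-22259622, minus strand) held 258 CAST and 177 S129 reads, a CAST share of 59.3% (54.5 to 64.0). The rest of the coding record (chr16:22244549-22266005) held 1970 and 2832 reads, a share of 41.0%. The difference was 18.3 percentage points (adjusted p = 7.77e-12, Fisher's exact test), and the 2 parts leaned to opposite alleles. The lncRNA record rested on 11 variants, 4 in exons and 7 in introns, with 39.5 reads per variant, and the rest on 55 variants, 29 in exons and 26 in introns, with 87.3 reads per variant. All 66 variants carried the non-reference base on CAST. The test counts each read as independent, and with an assumed correlation of 0.01 between reads the difference no longer passed (adjusted p = 0.196, Wald test).

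The lncRNA record of Tra2b covers the 276-base poison exon of this gene, at chr16:22258986-22259261, which in GENCODE M21 is part of 2 Tra2b transcripts. In the transcript from which the sequence was read, the reading frame ends at base 81 of the exon. The part up to that stop is shown because it is what turns the transcript into a decay target, and the 30-base stretch with most AGAA letters is shown because GA-rich sites are those that the TRA2 protein itself binds. Capitals mark the stop codon in the first and AGAA matches in the second.
Tra2b exon, chr16:22259181-22259261, minus strand: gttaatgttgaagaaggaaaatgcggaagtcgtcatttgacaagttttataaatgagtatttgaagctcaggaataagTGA
Tra2b exon, chr16:22259052-22259081, minus strand: tgaaAGAAgtcAGAAtttgaaacggaAGAA
The exon held 12 AGAA matches on the transcribed strand, 3 of them in the stretch shown. The median was 2 over 5788 annotated internal exons of 250 to 300 bases, and 0.207% of these had at least as many. Whether any of the 11 variants lies in this exon cannot be read from the table.

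Hnrnpm, which codes for an hnRNP that acts on exon choice in epithelial and mesenchymal cells, came next. Its lncRNA record had 575 CAST and 682 S129 reads (45.7% CAST) and its whole coding record 1039 and 1032 (50.2%), and the difference did not pass (adjusted p = 0.0523, Fisher's exact test). The lncRNA record lies nearly wholly inside the coding record, with 18806 of its 18815 bases shared, and the coding record spans 39158 bases. With the shared reads taken out, as an alternative added after the values were seen, the rest of the coding record had 464 and 350 reads, a share of 57.0%. The difference, lncRNA record minus rest, was then -11.3 percentage points and passed (adjusted p = 6.26e-06, Fisher's exact test). Hnrnpdl had 56 and 87 reads in its lncRNA record (39.2% CAST) and 820 and 910 in the rest (47.4%), which did not pass (adjusted p = 0.184, Fisher's exact test). Hnrnpr had the widest difference in points, but its lncRNA record held 8 reads, so that no difference of this size was detectable at this depth. None of the other genes passed by either comparison. Among them Srrm1 differed by 6.97 points, and Mbnl1 differed by -9.62 points (lncRNA record minus rest) with the shared reads taken out, at 52 reads in its lncRNA record and 26 in the rest.

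Members without a call include those that could not be read. Srsf1, the Srsf2 lncRNA record and Srrm4 were expressed but had no variant. For Srsf1 the record spans 3773 bases. Among 464 records of at least 50 TPM and 2 to 6 kb in length, 19 or 4.09% had none. A further 5 records had allelic reads at under 1 TPM, and 10 had neither allelic reads nor 1 TPM. Of these 5, Srsf12 had 5 CAST and 21 S129 reads, Celf2 had 6 and 16, Celf4 had 76 and 48, and both records of Celf3 had 10 and 6. All 5 lay under the TPM minimum of the rule, and Srsf12 alone would be called without that minimum (log2 fold change -2.07, adjusted p = 0.00671, exact binomial test).

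In some members a gene on the opposite strand overlaps the record, and reads over shared variants may be counted for both, as whether the allelic counting used strand is not given in the sources used here. This applied to Ptbp1, Hnrnpab, Srsf4, Mbnl2, Celf5, Rbfox2 and the Hnrnpu lncRNA record. The most expressed of the overlapping genes was Gm17134, at 219 TPM over 496 bases of Ptbp1, with 156 CAST and 128 S129 reads. Ptbp1 itself had 328 and 311 reads, a CAST share of 51.3%. Srsf4, at 44.7% CAST, was overlapped over 2229 bases by Gm12992 with 521 CAST and 825 S129 reads, against 954 and 1178 in Srsf4. The part of the overlap in these shares was not tested.

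A wider list of splicing regulators with other symbols was examined beside the members. It held SR protein kinases, SR-like and exon junction proteins, other hnRNP-type proteins, splice-site recognition factors and cell-type regulators, 82 genes in all, of which 69 had 104 tested records. Of these records 8, or 7.69%, were ASE, against 14.1% of all records, and all 8 leaned to CAST. Rnps1, an exon junction component, had 1768 CAST and 364 S129 reads (82.9% CAST), counted the same in both of its records. Pcbp4, a poly(C)-binding protein gene, had 575 and 114 reads (83.5%), and Msi1, which codes for an RNA-binding protein of stem cells, had 464 and 71 reads (86.7%). U2af2, which codes for the large subunit of the factor that recognises the 3′ splice site, had 1897 and 918 reads (67.4%). Pcbp3 had 254 and 105 reads (70.8%), and the lncRNA records of Thrap3 and of the SR protein kinase gene Srpk2 had 100 and 43 reads (69.9%) and 36 and 18 reads (66.7%). The Srpk2 record lay exactly at the minimum log2 fold change of 1 (adjusted p = 0.0433, exact binomial test). It rested on 1 variant, which had the non-reference base on S129. The share of such variants was 56.8% in Rnps1, 45.5% in Pcbp4 and 37.5% in the Thrap3 lncRNA record. It was 16.7% in U2af2, 12.5% in Msi1 and 0% in Pcbp3, against 11.1% over all tested records. The part of this in these calls was not tested. The median absolute log2 fold change of this list was 0.26, close to the 0.27 of the SR and hnRNP members.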

How the data were processed

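The authors aligned stranded total RNA-seq reads of 75-base pairs, from 1 µg of RNA per library, to mm10 (GRCm38.p6) with knowledge of the F123 variants, using STAR 2.7.2c (version from the submitters' processing notes) and Ensembl gene models, and removed duplicate reads. The authors made the deposited TPM values with HTSeq, keeping 1 transcript per gene and biotype. The deposited allelic counts were summed by the authors over the variants of a record and over both replicates, 8230836 CAST and 8112857 S129 reads over 18632 records in all. The deposited p-value, fraction and log2 fold change columns are the authors' own comparisons and were not used.

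Here each record's allelic counts were tested against equal shares by a two-sided exact binomial test (scipy 1.17.1), Benjamini-Hochberg adjusted over the 18632 records. Log2 fold changes have no reads added, and an allele without reads was set at 3 reads. Intervals are exact 95% (Clopper-Pearson) intervals. The 2 records of a gene were compared by a two-sided Fisher's exact test adjusted over 4109 genes. Both tests were run on simulated data with known changes, and recovered most of them but not all, the record comparison fewer than the binomial test. Reads are not independent molecules or replicates, so errors and p-values cover counting error only. The members and gene lists were chosen with earlier results of these data known. Values are given in full for members with an ASE record, members whose 2 records differ, the 10 with the highest TPM, and the 5 biallelic members with the widest log2 fold change at 100 or more reads. Other named members were chosen after their values were seen or for their role. All 76 member transcripts had the same start and end in GENCODE M21. Alternatives varied the minimum reads, TPM, fold, adjusted p and variants, the null share, the correlation between reads and the choice of records.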

Additional observations from a re-analysis of the deposited data

How the results depend on the processing

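The ASE records among the members differed from the 3 reported under these alternatives alone. With a beta-binomial correlation of 0.05 between reads, or a minimum fold of 3, 1 record was ASE, Srsf2, with 1 toward CAST and 0 toward S129. At a minimum fold of 1.5 there were 5, 2 of them toward S129, Hnrnpdl and Srrm1 lncRNA being added. With no TPM minimum Srsf12 was added, giving 2 toward S129. Without records whose variants mostly carry the non-reference base on S129, which also takes out Hnrnpc, 1 was called toward CAST, an alternative added after seeing the data. With no minimum fold, 3 records passed the adjusted p at a correlation of 0.01 and 1 at 0.05, alternatives also added after seeing the data. The genes whose records differ numbered 2 at 20 or more reads on both sides and with the added subtraction at 95% overlap (Hnrnpm and Tra2b), and 0 with a correlation of 0.01. Over the wider list, 4 records were ASE with a correlation of 0.05. No paired analysis was possible because both replicates are pooled in 1 group, and for the same reason no replicate could be left out.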
